A study of Homo sapiens with 6 samples.

Results

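AP-1 and the immediate early factors are described here by 10 genes, FOS, FOSB, FOSL1, FOSL2, JUN, JUNB, JUND, EGR1, IER3 and MYC, taken by symbol from the 22354 loci of a table of gene counts. All 10 were found in the table and all 10 passed the filter on low counts. RNA was sequenced from HTori-3.1, an established normal human thyroid cell line, in 3 libraries labelled control, whose genotype is given as wild type, and 3 libraries labelled BMAL1 knockout (below, labelled knockout). The knockout cells had received a lentivirus with Cas9 and an sgRNA against BMAL1, were selected with puromycin and were grown from single clones, so that clone and genotype cannot be told apart. Every library, control included, came from cells given etoposide at 2 μM, a topoisomerase inhibitor that breaks DNA, and the exposure is 12 h in the treatment field but 24 h in the protocol. The comparison asks how the RNA of these factors differed between the 2 labels under etoposide, since libraries without etoposide were not analysed here.

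AP-1 is a pair of bZIP proteins, in which a JUN protein joins either another JUN protein or a FOS protein and binds DNA as a dimer. Several of these genes are immediate early genes, whose transcripts appear within minutes of a growth factor, serum or stress signal without new protein synthesis and are quickly degraded. FOS, FOSB, JUN, JUNB, EGR1, IER3 and MYC are all known to be induced in this way, while JUND and FOSL2 are generally more stably expressed and FOSL1 is often maintained by lasting ERK signalling. MYC is a growth-promoting bHLH-ZIP factor, and IER3 encodes a short-lived stress-response protein.

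The RNA of the targeted gene was higher in the libraries labelled knockout. The authors present a western blot of BMAL1 protein, comparing control with knockout lines, as their check of the knockout. Protein was not analysed here, and the level of RNA alone does not show whether the protein was lost. BMAL1 (ENSG00000133794.20), which spans 13276652 to 13387266 on the forward strand of chromosome 11 in hg38, had 304, 326 and 409 reads in libraries labelled control, against 764, 603 and 860 in libraries labelled knockout. This is 11.3, 12.2 and 14.6 CPM (reads on a gene relative to its library's total, scaled by TMM, which corrects that total for composition) against 17.9, 19.8 and 19.4 CPM. The log2 fold change of BMAL1 was 0.58, higher in libraries labelled knockout (standard error, SE, 0.11, adjusted p = 0.0204, edgeR quasi-likelihood test, Benjamini-Hochberg), and the call was lost without control replicate 1 (adjusted p = 0.0896), control replicate 2 (0.113), knockout replicate 2 (0.0749) or knockout replicate 3 (0.0598) in the same edgeR test. Its exons overlap ENSG00000290083 on the opposite strand. Each direction given here is therefore that of the libraries labelled BMAL1 knockout over the libraries labelled control.

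The depth was 26893063, 27029060 and 28513703 total counts in libraries labelled control, against 43148059, 29860233 and 43563391 in libraries labelled knockout. The thyroid transcription factors PAX8 (122 CPM on average) and FOXE1 were expressed, and they were 2 of only 3 of 10 thyroid follicular markers that passed the filter. NKX2-1 and IYD had no count in any library, and TG, TSHR and SLC5A5 lay far below 1 CPM, so most defining markers of the hormone-making thyroid cell were absent or nearly so from these cells. Of the epithelial markers, KRT7, KRT8 and KRT18 were abundant, with KRT8 at a mean of 1282 CPM, whereas CDH1 and EPCAM were under 1 CPM.

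FOSL1 was the one gene of the 10 that passed the test, and it fell. FOSL1 (ENSG00000175592.9), which encodes the FOS-family protein FRA-1, has 4 exons on the reverse strand of chromosome 11 (65892049 to 65900573). Its expression was 169.3, 169.6 and 150.5 CPM in libraries labelled control, against 115, 109 and 117 CPM in libraries labelled knockout. The groups did not overlap, and the gap between them was wider than the range within either group. Going from 163 ± 10.95 to 114 ± 4.03 CPM (SD, n = 3 each), FOSL1 fell by 0.52 on the log2 scale (SE 0.077, adjusted p = 0.00505, edgeR with Benjamini-Hochberg adjustment), a change of -30.3%. FOSL1 was lower in 3 of 3 libraries labelled BMAL1 knockout, and its adjusted p was under 0.05 in each of 17 alternative fits. In RNA of whole cultures, fewer cells with FOSL1 RNA and less of it per cell cannot be told apart.

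Of the 10 genes, edgeR thus called 1 lower and 0 higher at an adjusted p under 0.05, where over the 14860 loci kept it called 212 lower (1.43%) and 161 higher (1.08%). With library size in place of TMM, 185 loci were called higher and 155 lower, which moved the share of calls that were higher from 43.2% to 54.4%. At an unadjusted p under 0.05 from edgeR, 3 of the 10 were lower (FOSL1, MYC and IER3) and 1 was higher (EGR1), against 7.78% and 9.08% of all loci. DESeq2 called EGR1 higher and FOSL1 lower, among 2.17% and 2.71% of the loci it tested, and limma-voom called 0 higher and FOSL1 lower, among 0.686% and 1.03%. The median log2 fold change was 0.08 over the 10 genes, 7 of them above 0, and 0.01 over all loci kept. CPM values did not overlap between the groups for 3 of the 10, FOSL1, IER3 and MYC, all lower in libraries labelled knockout, and for 23.3% of all loci in either direction.

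**Figure D1:**
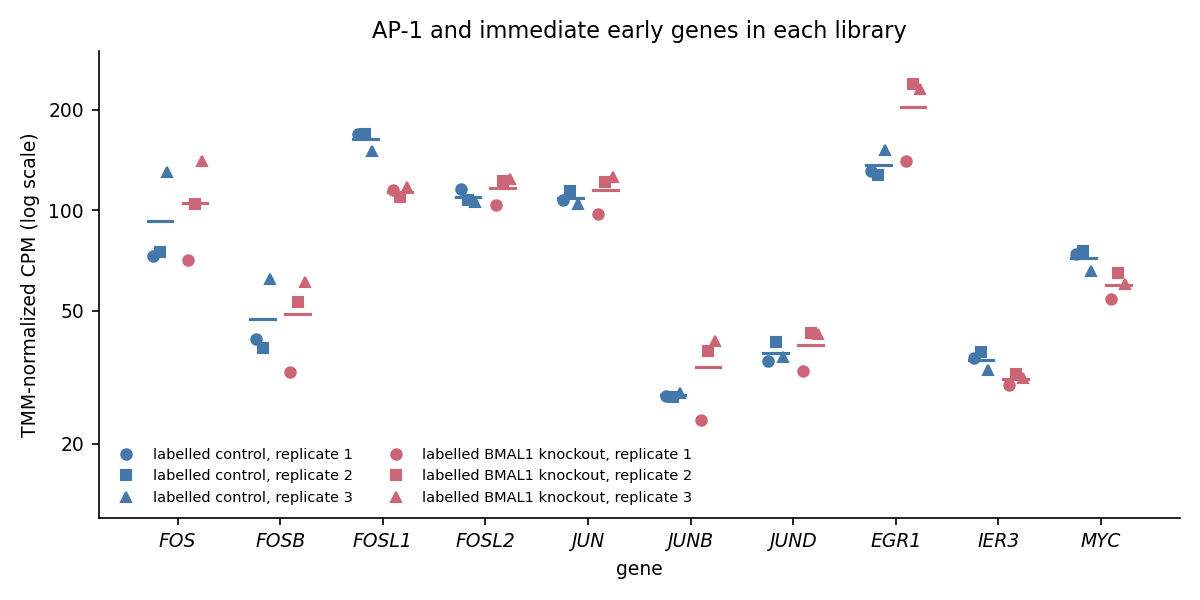
TMM-normalized CPM (log scale) of the 10 genes in each library, with blue for libraries labelled control, red for libraries labelled BMAL1 knockout, one symbol for each replicate number and a bar at each mean. FOSL1 lies between 151 and 170 CPM in blue and between 109 and 117 CPM in red, while FOS, FOSB and EGR1 spread widely within a group.

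FOS (ENSG00000170345.10), the founding member of its family, differed more between replicates than between labels. It spans 75278826 to 75282230 of chromosome 14, forward strand, and was counted at 1953, 2008 and 3636 reads in libraries labelled control, against 3019, 3175 and 6223 in libraries labelled knockout. On the CPM scale these are 72.8, 75.1 and 130 against 70.7, 104 and 140. The highest library of each group had nearly the same level, and so did the lowest. The log2 fold change of FOS was 0.18 with an SE of 0.37 (adjusted p = 0.858, edgeR with Benjamini-Hochberg adjustment), and its sign turned without knockout replicate 3, to -0.086.

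FOSB (ENSG00000125740.15), which encodes a close relative of FOS and lies on chromosome 19 from 45467995 to 45475179, had its highest and lowest knockout libraries in common with FOS. Its levels were 41.1, 38.7 and 62.2 CPM in libraries labelled control, against 32.8, 52.9 and 61.0 CPM in libraries labelled knockout. As for FOS, control replicate 3 was the highest of its group, knockout replicate 3 the highest and knockout replicate 1 the lowest of the other. The log2 fold change was 0.05 (SE 0.30, adjusted p = 0.963, edgeR with Benjamini-Hochberg adjustment). Without control replicate 1, control replicate 2, knockout replicate 2 or knockout replicate 3, the sign of FOSB turned, to -0.047, -0.081, -0.014 and -0.15.

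FOSL2 (ENSG00000075426.12), which encodes FRA-2, spans 28392448 to 28417317 of chromosome 2, forward strand, and showed little spread. It was measured at 116, 107 and 106 CPM in libraries labelled control, against 104, 122 and 124 CPM in libraries labelled knockout, and the groups overlapped. The log2 fold change was 0.09 (SE 0.087, adjusted p = 0.652, edgeR with Benjamini-Hochberg adjustment).

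EGR1 (ENSG00000120738.8), a zinc finger factor that serum and growth factors induce through SRF and its partners, had the largest positive log2 fold change of the 10 but did not pass the test. It has 2 exons on the forward strand of chromosome 5 (138465479 to 138469303). Its levels were 131, 128 and 151 CPM in libraries labelled control, against 141, 238 and 230.3 CPM in libraries labelled knockout. Knockout replicate 1 lay within the range of the control libraries, and knockout replicates 2 and 3 lay above it. The log2 fold change of EGR1 was thus 0.57 (SE 0.19, unadjusted p = 0.0182, adjusted p = 0.187, edgeR with Benjamini-Hochberg adjustment), from 137 ± 12.8 to 203 ± 54.2 CPM (SD, n = 3 each). It was called by DESeq2 (adjusted p = 0.00570) and by edgeR without knockout replicate 1, where its log2 fold change was 0.78 (adjusted p = 0.000472). Over the 17 alternative fits its adjusted p ran from 0.000472 to 0.432 by Benjamini-Hochberg, under 0.05 in 3 of them.

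The promoter of EGR1 is shown because it holds 2 CArG boxes, the element that SRF binds. The bases are from RefSeq (GRCh38.p14), at chr5:138465229-138465478 on the forward strand, from 250 bases before the start to the base before it, with the CArG boxes in capitals:
EGR1: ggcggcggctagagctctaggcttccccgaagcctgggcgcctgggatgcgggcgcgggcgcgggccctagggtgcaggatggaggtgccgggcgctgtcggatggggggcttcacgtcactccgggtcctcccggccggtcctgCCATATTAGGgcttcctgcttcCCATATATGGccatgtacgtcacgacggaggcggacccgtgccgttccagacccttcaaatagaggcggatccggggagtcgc
Counted from -1 at the base before the start, the boxes of EGR1 begin at -105 and -83. Windows from 250 bases before to 50 after the start were on hand for 7 of the 10 genes and were searched on both strands for the CArG box, the AP-1 site (TGACTCA or TGAGTCA), the cyclic AMP response element CRE (TGACGTCA), the E-box (CACGTG) and the EGR site (GCGGGGGCG or CGCCCCCGC). Of 35116 such windows in the RefSeq table, 1.29% held a CArG box, 4.95% the AP-1 site, 1.85% the CRE, 7.26% the E-box and 5.07% the EGR site. JUND held a CRE that begins at -200, shown in capitals at chr19:18281773-18281872 on the reverse strand, and FOSL2 an AP-1 site from base 5 to base 11 after the RefSeq start, which lies 410 bases inside the span given above for FOSL2, shown in capitals at chr2:28392846-28392875 on the forward strand:
JUND: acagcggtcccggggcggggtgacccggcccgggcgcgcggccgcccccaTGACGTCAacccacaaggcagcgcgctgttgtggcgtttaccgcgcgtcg
FOSL2: actcgtgccattgtagTGACTCAtctcggg
The windows of FOS, FOSB, JUN and JUNB held none of these letters. Only exact letters within the windows were searched, so variants of an element and elements further from the start would be missed. The absence of a match therefore does not show that a gene lacks the element. A match in these windows describes the sequence only, since binding was not measured.

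Among the JUN genes, JUN (ENSG00000177606.9), JUNB (ENSG00000171223.6) and JUND (ENSG00000130522.6) each consist of 1 exon, and none was called. JUN, the main partner of FOS proteins, lies on chromosome 1 from 58776845 to 58784048 and was measured at 107, 114 and 104 CPM in libraries labelled control, against 97.4, 121 and 126 CPM in libraries labelled knockout. JUND, on chromosome 19 from 18279694 to 18281622, was measured at 35.4, 40.3 and 36.5 CPM against 33.0, 42.7 and 42.7 CPM. In both genes knockout replicate 1 was the lowest of the 6 libraries and knockout replicates 2 and 3 were the highest. The log2 fold changes of JUN and JUND were 0.08 each, with SEs of 0.097 and 0.11 (adjusted p = 0.731 and 0.777, edgeR with Benjamini-Hochberg adjustment).

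JUNB, which can oppose JUN at some promoters, lies on chromosome 19 from 12791486 to 12793315 and shares exon positions with HOOK2 on the opposite strand, so its counts may include reads of HOOK2. It was measured at 27.7, 27.6 and 28.4 CPM in libraries labelled control, against 23.6, 37.8 and 40.7 CPM in libraries labelled knockout. The controls were almost equal, while knockout replicate 1 lay below all 3 of them and knockout replicates 2 and 3 above all 3. The log2 fold change of JUNB was 0.29 (SE 0.17, adjusted p = 0.426, edgeR with Benjamini-Hochberg adjustment). Without knockout replicate 1 it was 0.49 (adjusted p = 0.00630 in the same test, in a range of 0.00630 to 0.723 over the 17 alternatives), and edgeR then called 2 of the 10 genes higher, EGR1 and JUNB, against 1.95% of all loci.

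IER3 and MYC were lower in every library labelled BMAL1 knockout without passing the test. IER3 (ENSG00000137331.12), on chromosome 6 from 30743199 to 30744548, was measured at 36.2, 37.7 and 33.2 CPM in libraries labelled control, against 30.0, 32.4 and 31.4 CPM in libraries labelled knockout. The gap between the groups was small, with 33.2 CPM as the lowest control and 32.4 CPM as the highest knockout value, and the log2 fold change was -0.19 (SE 0.087, unadjusted p = 0.0480, adjusted p = 0.291, edgeR with Benjamini-Hochberg adjustment). Exons of HCG20 and IER3-AS1 overlap IER3 on the opposite strand.

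MYC (ENSG00000136997.22) was measured at 73.8, 75.5 and 65.9 CPM in libraries labelled control, against 54.3, 65.0 and 60.2 CPM in libraries labelled knockout. Its lowest control library and its highest knockout library nearly met. Its log2 fold change was -0.26 (SE 0.090, unadjusted p = 0.0134, adjusted p = 0.161, edgeR with Benjamini-Hochberg adjustment), and its adjusted p ran from 0.0608 to 0.448 over the 17 alternatives. CASC11 overlaps it on the opposite strand.

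**Figure D2:**
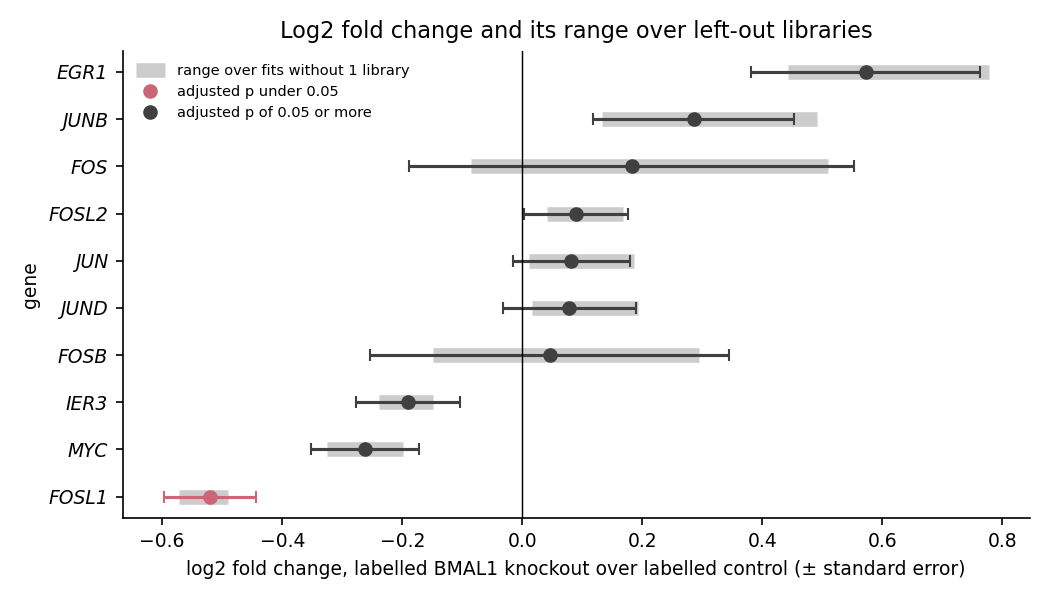
Log2 fold change of each gene (points, with the standard error, SE) and its range over the 6 fits that each left out 1 library (grey bars). FOSL1 stays between -0.57 and -0.49, while the range of FOS runs from -0.086 to 0.51 and that of FOSB from -0.15 to 0.29.

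Levels of different genes were compared as reads per kilobase of exon on the CPM scale (RPKM). In the libraries labelled control, FOSL1 was the most abundant of the 10 at 86.5 ± 5.80 RPKM (SD, n = 3), followed by EGR1 at 43.6 ± 4.09 RPKM. JUN (29.9 ± 1.36 RPKM), FOS (29.1 ± 10.1 RPKM) and IER3 (26.4 ± 1.70 RPKM) came next, and the spread of FOS was wider than the distance to either of the others. JUND (19.4 RPKM), FOSL2 (15.3 RPKM), JUNB (15.2 RPKM), MYC (11.7 RPKM) and FOSB (8.53 RPKM) were lower, with FOSL2 and JUNB not apart beyond their spread. In the libraries labelled BMAL1 knockout, EGR1 (64.8 ± 17.3 RPKM) and FOSL1 (60.3 ± 2.14 RPKM) stood at the top and did not differ beyond the spread of EGR1. The order below FOSL1 depends on the length used. Per kilobase of the longest transcript in place of all exons, an alternative for this order chosen after seeing the data, FOS stood at 34.6, 35.7 and 61.7 in libraries labelled control, on either side of EGR1 at 43.6 ± 4.09, and MYC at 19.3 ± 1.37, level with JUND at 19.4 ± 1.33 (SD, n = 3 each).

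Summed over FOS, FOSB, FOSL1 and FOSL2, the FOS family amounted to 136, 135 and 147 RPKM in libraries labelled control, against 103, 117 and 135 RPKM in libraries labelled knockout. All 3 knockout sums were lower, the highest of them only just, and their ratio to the controls was 0.849 (two-sided exact permutation test, p = 0.1, the smallest p that 3 libraries against 3 can give). With library size in place of TMM, or with the length of the longest transcript in place of all exons, the exact permutation p of that sum was 0.3. The lower sum lay in FOSL1 alone, whose mean went from 86.46 RPKM in libraries labelled control to 60.28 RPKM in libraries labelled knockout. The means of FOS (29.06 to 32.97 RPKM), FOSB (8.525 to 8.805 RPKM) and FOSL2 (15.31 to 16.29 RPKM) were slightly higher. The sum is therefore not a result apart from that of FOSL1. The JUN family summed to 63.0, 67.4 and 63.2 RPKM against 56.9, 76.3 and 79.0 RPKM. These groups overlapped, with a ratio of 1.10 (two-sided exact permutation test, p = 0.4).

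FOSL1 had the largest share of the FOS-family RNA in every library. In the controls it made up 65.9%, 66.4% and 54.4% of the sum, and 58.8%, 49.4% and 46.2% in libraries labelled knockout. The groups overlapped, because control replicate 3, with its high FOS, had a lower FOSL1 share than knockout replicate 1. With the length of the longest transcript the shares of FOSL1 were lower, at 61.3%, 61.7% and 48.5% in the controls and 53.9%, 44.03% and 40.5% in libraries labelled knockout. FOS itself made up 20.7 ± 6.20% of the family in the controls and 27.4 ± 5.65% in libraries labelled knockout (SD, n = 3 each). FOSL2 made up 11.01 ± 0.889% and 13.8 ± 0.852%. In the JUN family, JUN held 46.4 ± 0.691% and 45.0 ± 1.95%, JUND 30.0 ± 0.946% and 29.0 ± 1.02%, and JUNB 23.6 ± 1.15% and 26.0 ± 2.89% (SD, n = 3 each).

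**Figure D3:**
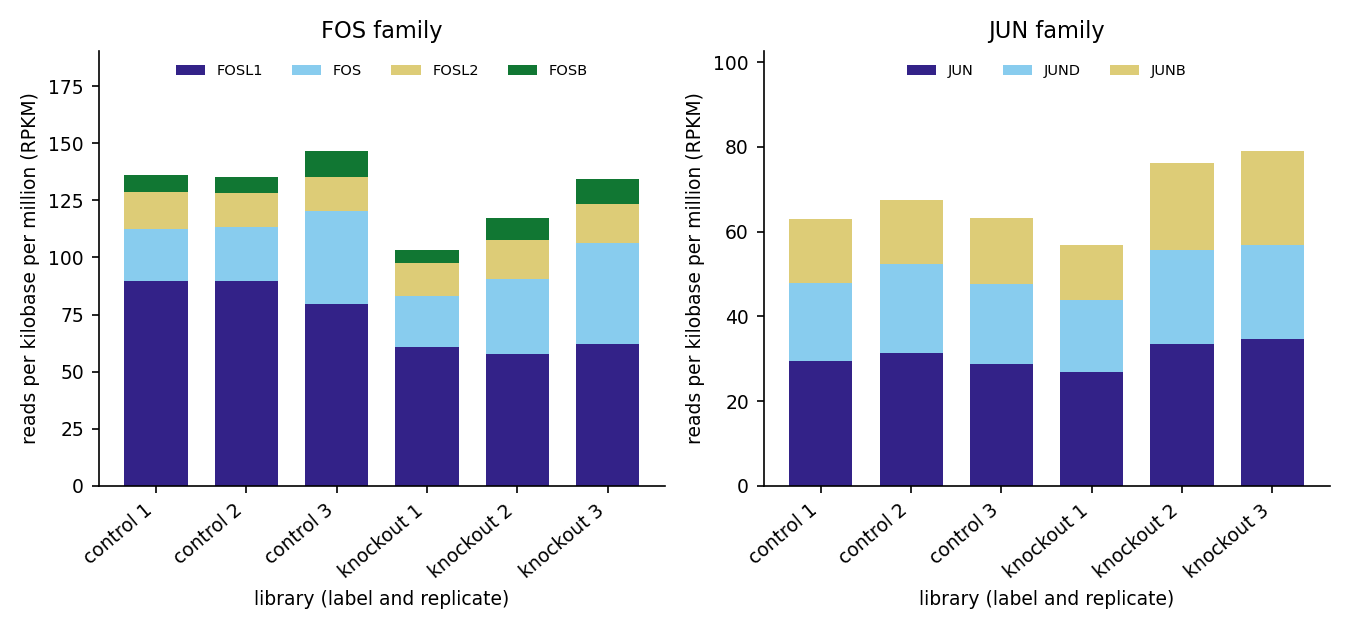
Level of the FOS family (left) and the JUN family (right) in each library in RPKM, stacked by gene. FOSL1 is the largest block of the FOS family in every library, and the shortest FOS and JUN columns are both those of knockout replicate 1.

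The 10 genes differed in how much they varied between replicates, with FOS, FOSB, EGR1 and JUNB the most variable. The SD of log2 CPM within groups was 0.48 for FOS, 0.42 for FOSB, 0.31 for EGR1 and 0.30 for JUNB, where 500 loci of like abundance had medians between 0.10 and 0.12. FOS lay above all 500 of its loci, EGR1 at percentile 99.8, FOSB at 99.6 and JUNB at 99.0. The SDs of JUND (percentile 83.0), JUN (80.0), FOSL2 and MYC (58.4 each), FOSL1 (39.4) and IER3 (20.4) were within the ordinary range. The high spread of EGR1 and JUNB came from the libraries labelled BMAL1 knockout, with SDs of 0.43 in each gene against 0.13 and 0.02 in the controls, whereas FOS and FOSB varied in both groups.

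One library recurred in these patterns. Knockout replicate 1 was the lowest of its group for 9 of the 10 genes, all but FOSL1, and for 45.0% of all loci kept, against 25.6% for knockout replicate 2 and 29.4% for knockout replicate 3. The cause of this pattern was not tested.

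Genes beside FOSL1 lay mostly on the same side. Of the 20 kept genes next to FOSL1, 10 on either side, 17 were lower in libraries labelled knockout (median log2 fold change -0.14), where 47.8% of all loci kept were lower, and 2 were called lower by edgeR (C11orf68 and DRAP1), against 1.43% of all loci. All 20 had a log2 fold change above that of FOSL1 itself, the lowest at -0.44. The neighbours of FOSL2 were all higher, 20 of 20, with a median of 0.21 against 0.09 for FOSL2, where 52.2% of all loci kept were higher. The 20 genes next to MYC had a median of -0.19 with 17 lower, 2 of them called lower (ASAP1 and ST3GAL1, against the same 1.43%), and 7 were further down than MYC. Neighbours were taken by order and not by distance. Those of MYC spread from 124450820 to 135656722 of chromosome 8, a far longer stretch than 65653599 to 66277492 of chromosome 11 for FOSL1. Around the other 7 genes the medians lay between -0.07 and 0.04, EGR1 stood above all 20 of its neighbours, and 1 neighbour of JUNB was called higher (PRDX2), against 1.08% of all loci. The neighbours named here were chosen after their values were seen. DNA was not measured here, and the part of copy number or other regional differences between the cell populations in these values was not tested.

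The other bZIP factors around AP-1 centred near 0. Of 16 such genes, 14 were kept, with a median log2 fold change of -0.01, 1 called higher and 0 called lower by edgeR, against 1.08% and 1.43% of all loci (2 and 1 at an unadjusted p under 0.05, against 9.08% and 7.78%; 1 and 0 by DESeq2, against 2.17% and 2.71%; 0 and 0 by limma-voom, against 0.686% and 1.03%). These shares of all loci hold for each list below. The one called was ATF3 (ENSG00000162772.18), a stress-induced factor that p53 and other pathways activate. ATF3 was measured at 53.4, 51.2 and 52.5 CPM in libraries labelled control, against 60.5, 74.2 and 74.1 CPM in libraries labelled knockout, and it rose by 0.41 on the log2 scale (SE 0.092, adjusted p = 0.0394, edgeR with Benjamini-Hochberg adjustment). The groups did not overlap, but the call held in only 1 of 6 fits without a library, the one without knockout replicate 1 (adjusted p = 0.00205), and the highest adjusted p was 0.174, without control replicate 2.

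Other immediate early genes moved in both directions. Of 32 genes, 31 were kept, with a median log2 fold change of 0.09, and edgeR called 1 higher and 3 lower, against 1.08% and 1.43% of all loci (4 and 4 by DESeq2, against 2.17% and 2.71%; 1 and 2 by limma-voom, against 0.686% and 1.03%). At an unadjusted p under 0.05, 9 were higher and 10 lower, against 9.08% and 7.78% of all loci. BTG2 (ENSG00000159388.6), an antiproliferative gene that p53 induces, rose from 30.1, 26.5 and 26.1 CPM in libraries labelled control to 43.4, 55.9 and 49.2 CPM in libraries labelled knockout, well apart from each other. Its log2 fold change was 0.85 (SE 0.11, adjusted p = 0.00233, edgeR with Benjamini-Hochberg adjustment), called in all 6 fits without a library. KLF4, a zinc finger factor of epithelial differentiation, fell by 0.48 on the log2 scale, F3, which encodes tissue factor, by 0.35, and ZFP36L1, an mRNA decay factor, by 0.33, and in each of these 3 the groups did not overlap. Their calls were less stable, since edgeR's adjusted p rose at most to 0.0938 for KLF4 (without control replicate 2), 0.139 for F3 and 0.198 for ZFP36L1 (both without knockout replicate 2). Of the 6 fits without a library, KLF4 was called in those without knockout replicates 1 and 2, F3 in the one without knockout replicate 1, and ZFP36L1 in those without knockout replicates 1 and 3. Without knockout replicate 1, 6 of these immediate early genes were called higher and 4 lower, against 1.95% and 2.26% of all loci in that fit. Exons of ENSG00000289987 overlap KLF4 on the opposite strand and those of ENSG00000289626 overlap ZFP36L1 on the same strand.

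The kinases and factors upstream of FOS and JUN centred near 0. Of 25, 24 were kept, with a median log2 fold change of 0.01, and edgeR called 0 higher and 1 lower, against 1.08% and 1.43% of all loci (1 and 2 at an unadjusted p under 0.05, against 9.08% and 7.78%; 0 and 1 by DESeq2, against 2.17% and 2.71%; 0 and 0 by limma-voom). ELK3, an ETS-family partner of SRF, fell by 0.47 on the log2 scale (SE 0.10, adjusted p = 0.0371, edgeR with Benjamini-Hochberg adjustment), from 55.9, 57.4 and 73.0 CPM in libraries labelled control to 44.7, 44.6 and 45.4 CPM in libraries labelled knockout. The edgeR call of ELK3 was lost without control replicate 2 (adjusted p = 0.0854), control replicate 3 (0.0825), knockout replicate 2 (0.110) or knockout replicate 3 (0.0772), and ENSG00000258177 overlaps it on the opposite strand. Activity of these kinases was not measured.

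Partners of MYC gave 14 kept genes of 15, a median log2 fold change of 0.00, and 0 called higher and 1 lower by edgeR, against 1.08% and 1.43% of all loci (1 and 2 at an unadjusted p under 0.05, against 9.08% and 7.78%; 0 and 1 by DESeq2, against 2.17% and 2.71%, and by limma-voom, against 0.686% and 1.03%). The gene called was MLXIP, a glucose-responsive factor that pairs with MLX, which fell by 0.44 on the log2 scale (SE 0.084, adjusted p = 0.0190, edgeR with Benjamini-Hochberg adjustment). Its levels were 141, 135 and 129 CPM in libraries labelled control, against 89.6, 102 and 107 CPM in libraries labelled knockout, with no overlap. In the edgeR fits without a library, MLXIP kept an adjusted p under 0.05 in 2 of 6, those without knockout replicate 1 and knockout replicate 3, and reached 0.0892 without control replicate 2.

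Textbook AP-1 target genes lay mostly lower. Of 23 such genes 16 were kept, with a median log2 fold change of -0.22 against 0.01 over all loci, 13 of them lower and 3 higher, where 47.8% of all loci were lower. By edgeR 4 were called lower, against 1.43% of all loci, and 0 higher (8 and 0 at an unadjusted p under 0.05, where 7.78% of all loci were lower; 5 and 0 by DESeq2, where 2.71% were lower; 3 and 0 by limma-voom, where 1.03% were). MMP1, MMP10, MMP13, IL1A, IL1B, EREG and SPP1 did not pass the filter on low counts. The list was chosen with earlier results of these data known, and its genes answer to many factors besides AP-1.

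CCND1 (ENSG00000110092.4), which encodes cyclin D1 and drives entry into S phase, had the smallest p of these targets. It was measured at 216, 214 and 226 CPM in libraries labelled control, against 139, 135 and 153 CPM in libraries labelled knockout, far apart beside the spread within groups. CCND1 fell by 0.62 on the log2 scale (SE 0.077, adjusted p = 0.00217, edgeR with Benjamini-Hochberg adjustment), and it was called in all 6 fits without a library. LTO1 overlaps it on the opposite strand.

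CD44, the hyaluronan receptor, fell by 0.45 on the log2 scale, from 361 ± 18.4 to 265 ± 15.0 CPM (SD, n = 3 each; adjusted p = 0.0117, edgeR with Benjamini-Hochberg adjustment), with 2 antisense genes, CD44-AS1 and CD44-DT, on the opposite strand. PLAUR, the urokinase receptor, fell by 0.42 (adjusted p = 0.0463) and TGFA, a ligand of the EGF receptor, by 0.41 (adjusted p = 0.0310), both on the log2 scale and by the same edgeR test. In all 3 genes every library labelled BMAL1 knockout lay below every control. Without a library, edgeR's adjusted p was at most 0.0657 for CD44 (without knockout replicate 2), 0.206 for PLAUR and 0.142 for TGFA (both without control replicate 2). CD44 was called without control replicate 1, knockout replicate 1 or knockout replicate 3, PLAUR without control replicate 3 or knockout replicate 1, and TGFA without knockout replicate 1, and their calls were lost in the other fits of this kind. PLAUR was also not called with library size only, a replicate block, no robust estimation or limma-voom, and TGFA not with a replicate block. Over the 6 fits without a library, the number of targets called lower ran from 1, without control replicate 2 or knockout replicate 2, to 6, without knockout replicate 1. Calls over all loci ran the same way in these fits, with 0.443%, 0.641% and 2.26% called lower.

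Heat shock and handling stress genes, which can rise with immediate early genes when cells are disturbed before lysis, were not called in either direction. All 10 were kept, with a median log2 fold change of -0.11 and 8 of them lower, where 47.8% of all loci were lower, and edgeR called 0 higher and 0 lower, as did DESeq2 and limma-voom, with 0 and 0 also at an unadjusted p under 0.05. The 2 with the smallest p were HSPH1, at a log2 fold change of -0.13 (adjusted p = 0.361, edgeR with Benjamini-Hochberg adjustment), and HSPA1B, at -0.16 (adjusted p = 0.437), whose reads may be split with its near-identical copy HSPA1A. Without knockout replicate 1, edgeR called 3 of the 10 lower, against 2.26% of all loci in that fit. Among libraries labelled knockout, replicate 1 was the highest for HSPH1 (464.4 CPM against 440.9 and 435.4 CPM). It was the lowest for HSPA1B (164.8 CPM against 198.6 and 205.5 CPM). A contrast of the labels does not show differences between single libraries, and handling was not tested.

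Markers of other cell types were mostly absent. Of 8 immune markers 3 were kept, CD3D, CD3E and MS4A1 had no count in any library, and CD68 was the most abundant at a mean of 11.05 CPM. Their summed level was 19.3, 19.9 and 17.96 CPM in libraries labelled control, against 14.2, 12.5 and 13.2 CPM in libraries labelled knockout, the difference lying largely in PTPRC, which edgeR called lower (log2 fold change -1.43, adjusted p = 0.00127 by Benjamini-Hochberg). Of the 6 endothelial markers 3 were kept, with VWF the most abundant at a mean of 1.10 CPM and LYVE1 at 0. The 6 summed to 2.76, 2.13 and 2.535 CPM in libraries labelled control, against 1.43, 1.64 and 2.08 CPM in libraries labelled knockout. All 3 kept were lower (median log2 fold change -0.56), and edgeR called 0 of them. Of 8 fibroblast markers 3 were kept, 6 were under 1 CPM, and DCN and LUM were at 0. COL1A1 was the most abundant at a mean of 859.6 CPM and did not pass the test (log2 fold change 0.00, adjusted p = 0.998, edgeR with Benjamini-Hochberg adjustment). PDGFRB followed at a mean of 20.04 CPM and did not pass it either. Of the 6 epithelial markers 5 were kept, and they summed to 2990, 3044 and 2897 CPM in libraries labelled control, against 2540, 2481 and 2562 CPM in libraries labelled knockout, with KRT18 called lower (log2 fold change -0.50, adjusted p = 0.00583 in the same edgeR test, and 0.0524 without control replicate 2). KRT8 had a log2 fold change of -0.28 (adjusted p = 0.0507 in the same edgeR test), from 1408 ± 41.4 to 1156 ± 7.94 CPM (SD, n = 3 each) with no overlap, and DESeq2 called both keratins lower (adjusted p = 0.00300 for KRT8), which share exon positions on opposite strands. KRT7, KRT19 and EPCAM were higher in libraries labelled knockout without passing the edgeR test (log2 fold changes 0.10, 0.23 and 1.57). Of the 5 epithelial markers kept, 3 were thus higher and 2 lower, with a median log2 fold change of 0.10. EPCAM, 1 of the 3, was near the floor, with 0, 10 and 0 reads in libraries labelled control against 10, 16 and 17 in libraries labelled knockout. The thyroid list summed to 173, 173 and 201 CPM against 130.2, 149 and 173 CPM, and edgeR called 0 of its genes (0 higher and 2 lower of 3 kept at an unadjusted p under 0.05, where 7.78% of all loci were lower, and none by DESeq2 or limma-voom). The part of these markers in the values of FOSL1 and the AP-1 targets was not tested.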

How the data were processed

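RNA from 6 libraries of HTori-3.1, 3 per label, was analysed. The authors trimmed out reads of low quality or with adapter sequence, aligned the others to hg38, and deposited raw counts, whole numbers of reads with a unique position for each gene. Their methods name fastp 0.20.1 for mapping and HISAT2 2.0.4 for counting; the annotation and strand are not given in the sources used here, so genes that overlap on either strand cannot be told apart. Nothing states that replicates were separate cultures, so p-values measure only the spread between these samples, which may be technical.

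Counts were fitted over the whole table with edgeR 4.0.16 in R 4.3.3 (TMM, default low-count filter, quasi-likelihood with robust estimation, two-sided), with Benjamini-Hochberg adjustment over the 14860 loci kept. The biological coefficient of variation over all loci was 0.108, and the 10 genes had between 737 and 10210 reads in a library. RPKM were TMM-scaled CPM divided by the GENCODE v44 exon length of a gene in kilobases. Family sums were compared by an exact permutation test over libraries, which for 3 against 3 cannot go below 0.1. Alternatives were median-of-ratios factors, library size only, 2 other low-count filters, a replicate block, removal of the trend with exon GC content (known for 91.4% of loci kept), thinning, no robust estimation, DESeq2 1.42.0, limma-voom 3.58.1 and leaving out each library. The edgeR, GC and spread steps were tested on simulated data. Promoters were matched by symbol in a table from RefSeq for 7 of 10 genes; FOSL1, IER3 and MYC were not in the table used.

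The genes named are the 10, BMAL1, and from each list (markers aside) up to 6 genes of smallest p among those with an adjusted p under 0.05, or the 2 of smallest p where there were none. Outside this rule, markers, neighbours of the 10 that edgeR called, list genes not kept and genes that overlap or resemble others are named too. The 10 genes and the lists were chosen with earlier results of these data known. Some values of list genes are not reported here.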

Additional observations from a re-analysis of the deposited data

How the results depend on the processing

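FOSL1 was lower with an adjusted p under 0.05 in all 17 alternative fits (at most 0.0423, without control replicate 2), and FOSL2, JUN, JUND, IER3 and MYC kept their direction and stayed uncalled in all 17. EGR1 was called by DESeq2 (log2 fold change 0.57) and with the GC trend removed together with a replicate block (0.57, adjusted p = 0.0387), each making 1 of the 10 genes called higher. Over the fits without 1 library each, log2 fold changes ran from 0.44 to 0.78 for EGR1, 0.13 to 0.49 for JUNB, -0.086 to 0.51 for FOS and -0.15 to 0.29 for FOSB, and genes of the 10 called higher from 0 to 2. FOS turned to -0.086 without knockout replicate 3, and FOSB to -0.047, -0.081, -0.014 and -0.15 without control replicates 1 and 2 and knockout replicates 2 and 3. The cause was not tested.

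Over all loci, calls ran from 46 to 293 higher and from 67 to 340 lower in the fits without 1 library, against 161 and 212 with all 6. They were 310 and 387 by DESeq2, 502 and 565 with the GC trend removed and 344 and 450 with that and the replicate block, and limma-voom called 102 higher. A replicate block alone gave 132 higher and 145 lower. Libraries that share a number did not deviate together (correlations across 13358 genes of -0.13, 0.03 and -0.04), so the numbers were not taken to pair them, and no library labelled BMAL1 knockout correlated best with its own number. Of the refits of BMAL1 and the called list and marker genes, 58 lost the call and none changed direction. Among fits that kept every library, a replicate block alone ended the calls of ATF3, F3, ZFP36L1, TGFA and PLAUR. Calls of ATF3, ZFP36L1, ELK3 and PLAUR were lost by limma-voom and without robust estimation, and those of ZFP36L1 and PLAUR with library size only. The ratio of the summed FOS family stayed between 0.791 and 0.903 and that of the JUN family between 1.03 and 1.20 over the fits without 1 library.

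Each of the 10 genes had at least 737 reads in every library.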
